A study of Mus musculus with 4 samples.

Results

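The 77 genes described here encode mitochondrial respiratory chain proteins and were chosen by name alone, as array probes whose gene name begins with Nduf and a subunit letter (a, b, c, s or v) with a digit, Uqcr, Cox4 to Cox8, or Atp5. They were represented by 106 of the 41174 non-control probes, and by 77 of the 27594 genes with a value. No measured value entered the name pattern, but earlier results of these data were known when it was chosen. By role, 73 of the 77 genes encode a subunit of complex I, III, IV or V. The other 4 fit the name pattern and encode no subunit: Ndufa12l (now Ndufaf2, a complex I assembly factor), Cox7a2l (a factor that joins complexes III and IV into supercomplexes), Atp5s (now Dmac2l) and Cox4nb (now Emc8, a part of an endoplasmic reticulum complex).

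The ilium, femur, maxilla and mandible of male C57BL/6 mice, 35 days old, were each measured on 1 Agilent 1-colour whole mouse genome array. All 4 shared strain, sex and age, no treatment is given for them, and the number of animals behind each RNA sample is not given in the sources used here. The series sets the jaw bones, which arise mainly from the neural crest, against the ilium and femur, which arise from mesoderm. With 1 array a bone, the unit of the comparison is the bone, so p-values reflect how far 2 bones of one class lie apart and not the spread between animals, and 4 arrays limit the precision of every value.

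The respiratory chain sits in the inner mitochondrial membrane. Complex I takes electrons from NADH, complex III passes them from ubiquinol to cytochrome c, and complex IV hands them to oxygen, and each of these pumps protons. ATP synthase, also called complex V, lets the protons flow back through its membrane part and makes ATP in its head. Most subunits are made in every cell type, while a few subunits of complex IV have a separate isoform in heart and skeletal muscle. Bone pieces hold marrow and attached muscle as well as bone cells, and in whole-tissue RNA fewer cells of a type and less RNA per cell cannot be told apart.

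A level below is the log2 signal of a gene's brightest probe minus the 75th percentile of its array, and a difference is a difference of such levels. The 75th percentile of the signal was 1142.2 in ilium, 1207.6 in femur, 809.49 in maxilla and 1142.2 in mandible, and 72.8 to 75.5% of spots were well above background. Osteoblast markers were above background in every bone, 7 of 7, with a summed linear level of 313.6 in ilium, 264.6 in femur, 396.6 in maxilla and 411 in mandible. The maxilla stood apart in 5 nasal and salivary markers, with a summed level of 512.9 against 0.43 in the ilium, 0.04 in the femur and 0.44 in the mandible. Other tissue differed as well. The summed level of 12 fast muscle markers was 1364 in ilium, 1350 in femur, 361.4 in maxilla and 1282 in mandible. That of 10 erythroid markers was 999.1, 987.7, 774 and 678.8 in the same order, a sum in which the globins weigh most. Taken gene by gene, the erythroid markers had a median jaw minus trunk and limb difference of -3.28. Their median maxilla minus mandible difference was -0.66. The part of these tissues in the results below was not tested, except where a value is given.

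In the jaw bones, respiratory chain genes as a whole stood close to the ilium and femur. Of 77 genes, 76 exceeded background on 2 or more arrays and were tested, and the testis isoform Cox8c was above background on none. The median jaw minus trunk and limb difference over the 76 was -0.0011 on the log2 scale, against -0.03 over all 20616 genes tested, and 38 lay below 0 and 38 above. The median followed the scaling of the arrays: it was -0.25 with centring on the array median, where that of all genes was -0.28, and 0.21 with quantile normalisation, where that of all genes was -0.09. The medians given below for complexes I and III, the widely expressed complex IV subunits and ATP synthase turn sign under one or the other of these scalings, and no gene of theirs was called under either scaling. Single differences ran from -1.17 to 0.63. By limma with Benjamini-Hochberg adjustment over all genes, none of the 76 was lower and none was higher in the jaw at an adjusted p under 0.05, and 1 (Cox6b2) had an unadjusted p under 0.05. Of all genes tested, 7.25% were called lower and 4.51% higher. By a size rule with no test, in which both jaw bones lie at least 1 log2 unit beyond both other bones, 0 of 76 were lower and 0 higher, against 9.82% and 9.34% of all genes.

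The intervals show how far that absence of calls reaches. For 53 of the 76 genes the 95% interval of the difference lay wholly within 1 log2 unit of 0, so that a change of 2-fold or more lies outside it. The same held for 4707 of the 20616 genes tested. The median absolute difference was 0.18 for the respiratory chain genes and 0.63 for all genes tested. The wide intervals belonged mainly to genes on which the maxilla and the mandible differed, above all the heart and muscle isoforms.

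**Figure D1:**
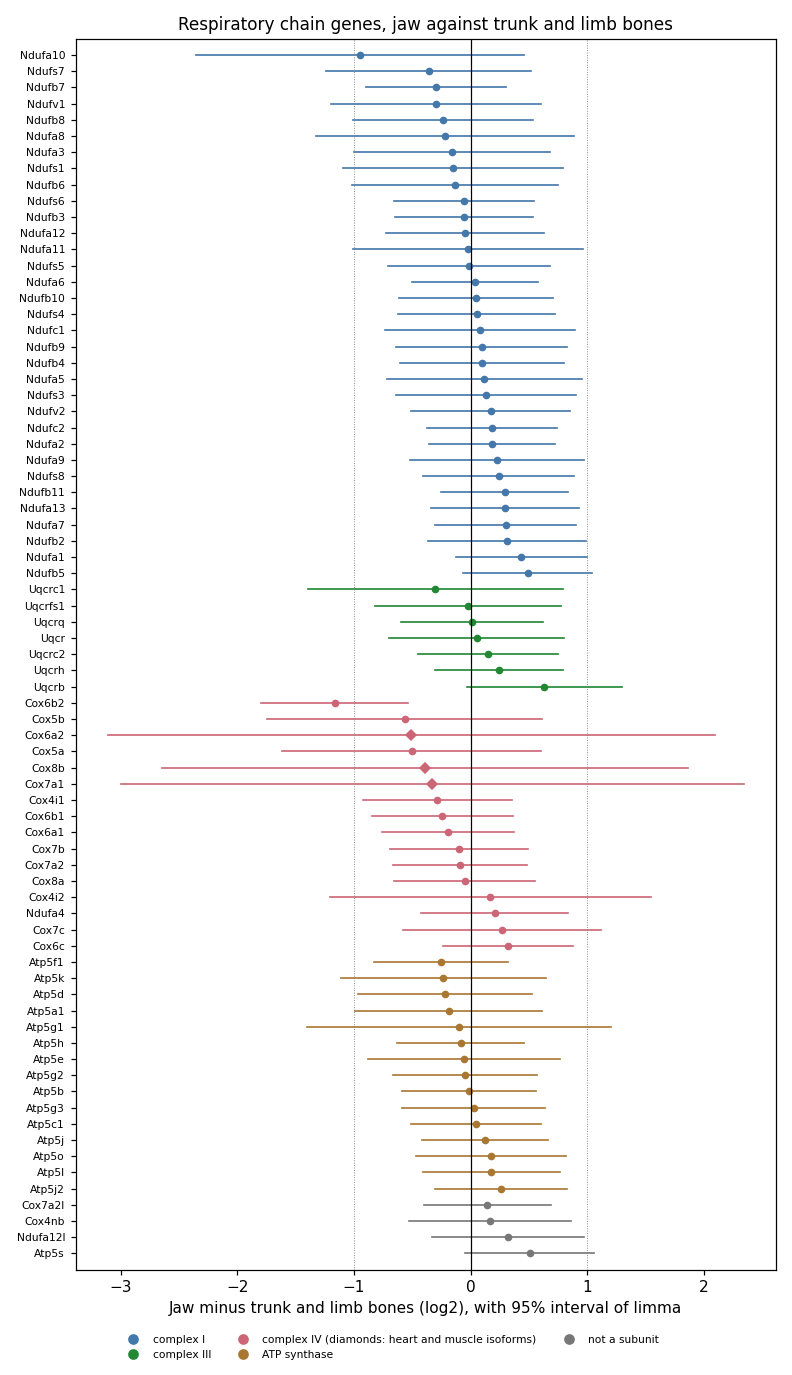
Difference between jaw and trunk and limb bones for 75 of the 76 tested genes (log2, x axis), grouped by complex, with bars giving limma's 95% interval and dotted lines at a 2-fold change in either direction. The points run from -1.17 (Cox6b2) to 0.63 (Uqcrb), and the longest bars are those of Cox6a2, Cox7a1 and Cox8b, the diamonds.

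The maxilla and the mandible, in contrast, differed from each other. In the maxilla 67 of 76 genes were lower than in the mandible and 9 were higher, where 11230 of all 20616 genes tested were lower. The median difference was -0.37 on the log2 scale, against -0.07 over all genes tested. The 67 widely expressed subunits had a median of -0.36. A fall of at least 2-fold was seen for 7 of 76 genes, where 8.44% of all genes tested fell that far, so the share of large differences was near the background. None of the 76 was at least 2-fold higher in the maxilla, against 13.8% of all genes. These values come from 1 array a bone and carry no test.

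The maxilla was the lowest of the 4 bones for 50 of 76 genes, against 34.0% of all genes tested, and the mandible was the highest for 51 of 76, against 27.0%. Both held for 35 of the 76 genes and for 1564 of the 20616. The scaling of the arrays bears on these counts, since it moves all genes of an array together. With quantile normalisation 32 of the 76 genes were lowest in the maxilla, or 42.1%, against 41.2% of all genes, so no excess was seen there. With centring on the array median 72 were, or 94.7%, against 50.3% of all genes. The sign of the difference between maxilla and mandible depended less on it. Under the main scaling and 4 others, 66 to 76 of the 76 genes lay below 0. The 4 others were normexp background correction, quantile normalisation, median centring and the deposited series table. The count over all 20616 genes also moved, from 9383 below 0 with normexp to 14206 in the series table. All 76 lay below 0 with median centring and in the series table, where the counts over all genes were highest, 14017 and 14206.

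The ilium and the femur were nearly alike. None of the 76 genes differed by 2-fold between them, where 2-fold lower values in the ilium were seen for 1.72% of all genes tested and 2-fold higher ones for 2.47%. The median difference, ilium minus femur, was 0.06, and the median absolute difference was 0.08 against 0.19 over all genes tested. The extremes were Uqcrc1 at -0.33 and Cox4i2 at 0.59. The latter lay near background.

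Complex I, the NADH dehydrogenase, was represented by 34 genes, all tested, with none called. Their median jaw minus trunk and limb difference was 0.05, with 15 genes below 0 and 19 above. The 7 core subunits, which carry the flavin and the iron-sulphur clusters, had a median of -0.04 and the 27 accessory subunits 0.05. Between the jaw bones the core subunits differed more than the accessory ones, with a median maxilla minus mandible difference of -0.67 against -0.38, and all 7 core subunits were lower in the maxilla. That contrast within the complex was not tested.

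Ndufs1, which carries several iron-sulphur clusters, had levels of 4.18 in ilium, 4.22 in femur, 3.68 in maxilla and 4.42 in mandible. Ndufv1, the flavin-binding subunit, had 4.91, 4.77, 4.20 and 4.88 in the same order. In both genes the maxilla was lowest, also under the 4 other scalings. Ndufs8, another iron-sulphur subunit, had 1.23 in ilium, 1.45 in femur, 1.44 in maxilla and 1.71 in mandible, so its maxilla lay between ilium and mandible; with median centring the maxilla was lowest here too.

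Ndufa10, an accessory subunit, had the lowest jaw minus trunk and limb difference of complex I. Its levels were 2.53 in ilium, 2.51 in femur, 0.95 in maxilla and 2.20 in mandible. Both jaw bones were below both other bones under every scaling run, but by unequal amounts. The difference was -0.94 ± 0.49 (SE, 2 bones a class; limma adjusted p = 0.265), and the maxilla was 2.38-fold below the mandible. For the maxilla alone the difference was -1.57.

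Ndufb5, an accessory subunit of the membrane arm, had the highest difference of the complex. Its levels were 1.89 in ilium, 1.82 in femur, 2.39 in maxilla and 2.29 in mandible. The classes did not overlap under any of the 5 scalings, and the difference of 0.49 ± 0.19 (SE, 2 bones a class) had a limma adjusted p of 0.177. Ndufs5 and Ndufa11, both accessory subunits, had the smallest differences, -0.02 and -0.02. Ndufb3 differed most between ilium and femur within the complex, by 0.24.

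Complex III, the cytochrome c reductase, was represented by 7 genes with a median jaw minus trunk and limb difference of 0.05, and all 7 were lower in the maxilla than in the mandible. Uqcrb, the ubiquinone-binding subunit, had the highest difference of all 76 genes. Its levels were 2.97 in ilium, 2.97 in femur, 3.41 in maxilla and 3.79 in mandible. Both jaw bones were above both other bones under all 5 scalings. The difference was 0.63 ± 0.23 (SE, 2 bones a class), the 95% interval ran from -0.03 to 1.29, and the limma adjusted p was 0.158. For the mandible alone the difference was 0.82.

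Uqcrc1, a core protein of complex III, had the lowest difference of the complex, -0.30 ± 0.38 (SE, 2 bones a class; limma adjusted p = 0.614). Its levels were 4.89 in ilium, 5.22 in femur, 4.33 in maxilla and 5.18 in mandible, so the mandible lay between the ilium and the femur. Its dimmer second probe had 4.02, 4.11, 2.96 and 3.91 in the same order. By that probe both jaw bones lay below both other bones, with a difference of -0.63. Uqcrq had a difference of 0.01. Uqcrfs1, the Rieske iron-sulphur protein, had a difference of -0.03, with levels of 4.05, 4.13, 3.79 and 4.35 from ilium to mandible.

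Complex IV, the cytochrome c oxidase, held the genes with the largest differences. Of its 17 genes, 16 were tested: 11 widely expressed subunits, 3 heart and muscle isoforms and 2 isoforms of other tissues. The widely expressed subunits had a median jaw minus trunk and limb difference of -0.10 and a median maxilla minus mandible difference of -0.25. The heart and muscle isoforms had medians of -0.39 and -2.45.

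Cox6a2, the heart and muscle form of subunit VIa, had levels of 5.31 in ilium, 5.36 in femur, 3.60 in maxilla and 6.05 in mandible. Cox7a1, the heart and muscle form of subunit VIIa, had 5.34, 5.57, 3.87 and 6.38 in the same order. Cox8b, the heart and muscle form of subunit VIII, had 4.49, 4.31, 2.96 and 5.06. All 3 isoforms showed one order, with the maxilla lowest, the mandible highest, and the ilium and femur together between them, and kept it under the 4 other scalings. The mandible exceeded the maxilla 5.46-fold for Cox6a2, 5.68-fold for Cox7a1 and 4.28-fold for Cox8b.

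Because the jaw bones lay on opposite sides of the other bones, the class comparison gave small differences with wide errors. It was -0.51 ± 0.91 (SE, 2 bones a class) for Cox6a2, with a limma adjusted p of 0.724. For Cox7a1 it was -0.33 ± 0.94 with a limma adjusted p of 0.827, and for Cox8b -0.39 ± 0.79 with 0.756. Each depended on which jaw bone was present. The median over the 3 was -1.58 without the mandible and 0.71 without the maxilla. In such fits the jaw is 1 array and the error comes from the ilium and femur alone. All 3 were called lower without the mandible, where 20.2% of all genes tested were, and none was called without the maxilla.

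The widely expressed partner genes did not follow this order. Cox6a1, the partner of Cox6a2, had levels of 7.35 in ilium, 7.21 in femur, 7.14 in maxilla and 7.03 in mandible. Cox7a2, the partner of Cox7a1, had 4.73, 4.63, 4.68 and 4.50, and Cox8a, the partner of Cox8b, had 5.77, 5.59, 5.73 and 5.53. In all 3 partners the mandible was the lowest bone, but with median centring the maxilla was. The maxilla minus mandible difference of the isoform was below that of its partner by 2.56 for Cox6a2, 2.68 for Cox7a1 and 2.30 for Cox8b, and under the 4 other scalings this gap ran from 2.26 to 2.68.

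**Figure D2:**
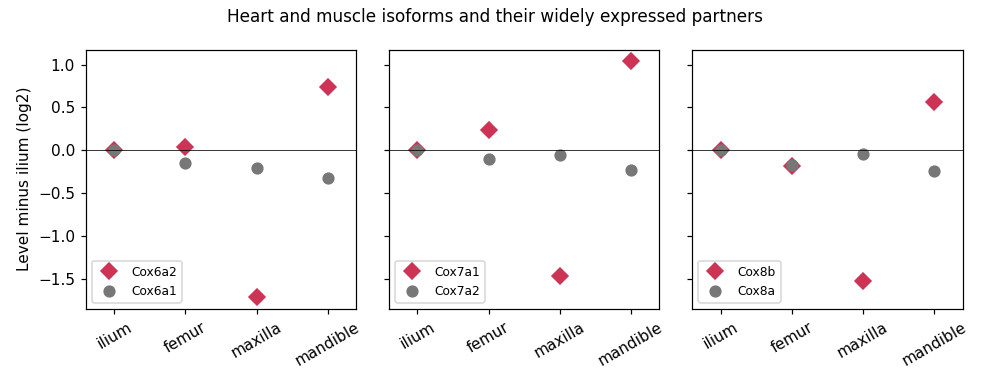
Level of each heart and muscle isoform (diamonds) and of its widely expressed partner (circles) in the 4 bones, as a log2 difference from the ilium, with 1 array a bone and so no error bar. The isoforms lie 1.47 to 1.71 below the ilium in the maxilla and 0.57 to 1.04 above it in the mandible, and the partners stay within 0.32 of the ilium.

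The upstream sequences of Cox7a1 and Cox8b also differed from those of their partners; no window for Cox6a2 was used here. The windows below are the 250 bases before the annotated gene start, from RefSeq on GRCm38.p6, and are shown because they carry that difference in CpG content. Cox7a1 is at chr7:30183921-30184170 on the plus strand, and Cox7a2 at chr9:79759854-79760103 on the minus strand. Cox8b is at chr7:140900447-140900696 and Cox8a at chr19:7217617-7217866, both on the minus strand. Each is written 5′ to 3′ along the gene, with CpG dinucleotides in capitals.
Cox7a1: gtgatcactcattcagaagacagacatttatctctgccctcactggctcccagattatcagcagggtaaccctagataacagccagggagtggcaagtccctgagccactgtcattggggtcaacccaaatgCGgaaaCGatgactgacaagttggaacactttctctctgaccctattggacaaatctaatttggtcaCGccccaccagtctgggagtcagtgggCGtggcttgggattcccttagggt
Cox7a2: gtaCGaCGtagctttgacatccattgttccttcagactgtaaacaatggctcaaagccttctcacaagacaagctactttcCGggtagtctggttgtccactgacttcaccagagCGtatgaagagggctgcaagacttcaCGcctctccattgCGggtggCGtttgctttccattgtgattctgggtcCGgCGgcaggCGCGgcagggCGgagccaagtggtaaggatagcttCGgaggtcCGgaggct
Cox8b: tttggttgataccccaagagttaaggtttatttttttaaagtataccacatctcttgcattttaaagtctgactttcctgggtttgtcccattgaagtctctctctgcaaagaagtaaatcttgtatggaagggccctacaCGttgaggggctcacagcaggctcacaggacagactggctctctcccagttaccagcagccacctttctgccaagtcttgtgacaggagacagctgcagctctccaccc
Cox8a: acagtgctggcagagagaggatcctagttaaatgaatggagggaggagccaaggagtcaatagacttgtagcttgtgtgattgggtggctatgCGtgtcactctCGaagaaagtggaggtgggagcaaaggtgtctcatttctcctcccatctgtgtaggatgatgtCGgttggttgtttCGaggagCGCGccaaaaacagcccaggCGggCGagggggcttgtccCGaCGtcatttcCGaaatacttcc

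The window of Cox7a1 held 4 CpG dinucleotides and that of Cox7a2 held 14. A count of 4 was also seen for Ndufc2, a widely expressed subunit of complex I. The window of Cox8b held 1, the fewest of any gene in the set, and that of Cox8a held 11. A window was found for 63 of the 77 genes (81.8%), and the median over them was 14 CpG dinucleotides, against 6 over 27025 genes with a window. The 57 widely expressed subunits with a window had a median of 15.

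Motifs were searched as letters on both strands of the same windows, and a match is a description only. The NRF-1 motif GCGCNTGCG, named for nuclear respiratory factor 1, was present in 14 of 63 windows, or 22.2%, against 5.88% of all genes. All 14 were widely expressed subunits, as were 57 of the 63 genes with a window. The ETS motif CCGGAAG, which fits nuclear respiratory factor 2, was present in 17.5% against 7.83%, and the ERR motif AAGGTCA in 7.94% against 4.7%. The E-box CAGCTG was present in 9.52% against 14.7%, the TATA box TATAAA in 7.94% against 14.3%, and the MEF2 motif in 0 of 63 against 0.592%. Cox8b had an E-box match and Cox7a1 had no match to any of the 6 motifs.

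Cox6a1 is shown as the partner gene with NRF-1 matches. Its window is at chr5:115348959-115349208 on the minus strand, on GRCm38.p6, with the NRF-1 matches in capitals. The matches on opposite strands of one place overlap each other.
Cox6a1: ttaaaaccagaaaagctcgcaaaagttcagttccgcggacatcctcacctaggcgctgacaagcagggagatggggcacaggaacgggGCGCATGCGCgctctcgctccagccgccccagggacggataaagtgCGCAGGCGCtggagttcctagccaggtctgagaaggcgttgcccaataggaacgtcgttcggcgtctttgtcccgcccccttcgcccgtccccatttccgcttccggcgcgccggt

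Among the isoforms of other tissues, Cox6b2, the testis form of subunit VIb, gave a different pattern from the muscle forms. Its levels were 1.27 in ilium, 1.54 in femur, 0.15 in maxilla and 0.33 in mandible. Both jaw bones lay below both other bones, and did so under all 5 scalings. The difference of -1.17 ± 0.22 (SE, 2 bones a class) was the lowest of the 76 genes, with a 95% interval from -1.80 to -0.53 and a limma adjusted p of 0.0548, just short of the threshold. It passed with normexp background correction (adjusted p = 0.0471) and when genes had to be above background on all 4 arrays (0.0459). Its partner Cox6b1 had 1.33, 1.22, 0.91 and 1.16, a difference of -0.24 ± 0.21 with a limma adjusted p of 0.473. Limma called 7.25% of all genes tested lower in the jaw. It called lower none of the 12 fast muscle, 7 osteoblast, 5 nasal and salivary and 4 tested brown adipocyte markers. It did call lower 8 of 10 erythroid, 6 of 12 slow and cardiac muscle, 5 of 6 B-lymphocyte and 4 of 8 neutrophil markers. White adipocyte markers were called lower for 2 of 5 tested. The globins Hba-a1 (-0.18) and Hbb-bt (0.03) were not called. The part of these cells in the value of Cox6b2 was not tested.

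Cox4i2, the lung form of subunit IV, lay near background in every bone, with levels of -5.68, -6.28, -6.35 and -5.28 from ilium to mandible, and was above background on 3 arrays. As in the muscle forms its maxilla was lowest and its mandible highest, 2.10-fold apart, but this order changed with normexp background correction. The partner of Cox4i2, Cox4i1, had 6.34 in ilium, 6.34 in femur, 5.89 in maxilla and 6.22 in mandible. Cox8c, and Cox7b2, whose probe was named through its accession and not by the name pattern, were not well above background on any array. Among the widely expressed subunits, Cox6c had the highest difference, 0.32 ± 0.20 (SE, 2 bones a class; limma adjusted p = 0.323). Cox7b had -0.10 ± 0.21, and Ndufa4, once counted in complex I and now placed in complex IV, had 0.20 ± 0.22.

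Cox5a and Cox5b, nuclear subunits that contact the catalytic core, were the widely expressed complex IV genes with the largest gaps between the jaw bones. Cox5b had 6.13 in ilium, 6.07 in femur, 5.03 in maxilla and 6.04 in mandible. Cox5a had 5.93, 5.85, 4.92 and 5.86. In both genes the maxilla alone was low and the other 3 bones lay within 0.10 of each other. The mandible was 2.00-fold above the maxilla for Cox5b and 1.91-fold for Cox5a.

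ATP synthase was represented by 15 genes, 5 of the catalytic F1 head and 10 of the membrane part and stalks. The median jaw minus trunk and limb difference was -0.06 for the head and -0.01 for the rest, and 13 of the 15 intervals lay within 1 log2 unit of 0. The catalytic beta subunit Atp5b had levels of 6.25 in ilium, 6.28 in femur, 6.15 in maxilla and 6.35 in mandible, a difference of -0.02 ± 0.20 with a limma adjusted p of 0.964. Its 2 dimmer probes gave -0.55 and -0.43. Atp5f1 (now Atp5pb), the stalk subunit b, had the lowest difference, -0.25 ± 0.20, and Atp5j2 the highest, 0.26 ± 0.20, neither of them called, and the second probe of Atp5j2 gave -0.42. Atp5l differed most between ilium and femur, by 0.14.

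Subunit c, the proton-carrying ring, is encoded by 3 genes that give the same mature protein. Atp5g1 had levels of 4.64 in ilium, 4.58 in femur, 3.94 in maxilla and 5.08 in mandible. Atp5g2 had 5.24, 5.13, 5.00 and 5.27, and Atp5g3 had 5.99, 5.85, 5.82 and 6.07. All 3 were lowest in the maxilla and highest in the mandible, an order that held under the 4 other scalings for Atp5g1. It changed for Atp5g2 under all 4 and for Atp5g3 under 3 of them, all but normexp background correction. The mandible was 2.21-fold above the maxilla for Atp5g1, while the maxilla minus mandible difference was -0.27 for Atp5g2 and -0.25 for Atp5g3.

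**Figure D3:**
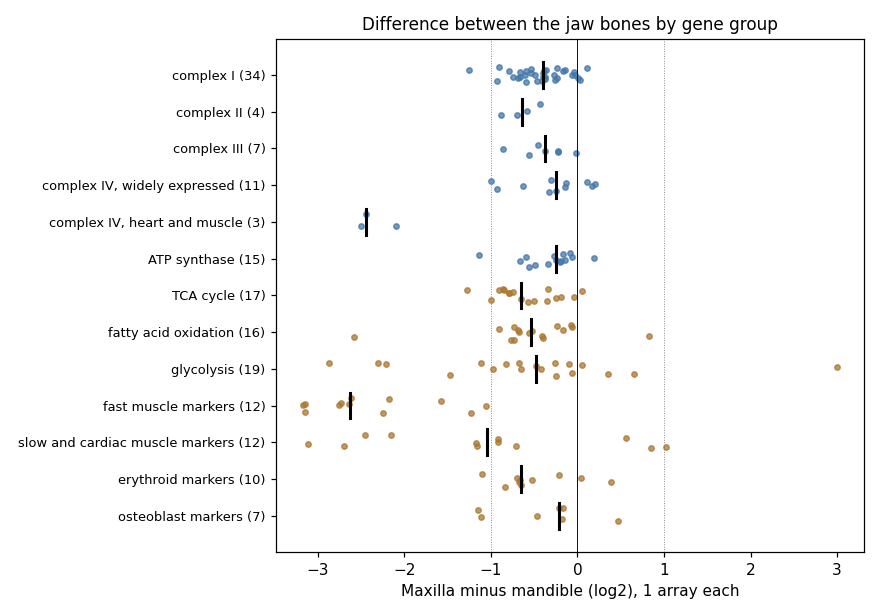
Maxilla minus mandible difference (log2, x axis) of each tested gene, by complex (blue) and for other gene lists (brown), with a black bar at each median, dotted lines at 2-fold and the number of genes in brackets; 1 array a bone. The median is -2.45 for the heart and muscle isoforms and -2.63 for fast muscle markers, and between -0.25 and -0.40 for complexes I and III, the widely expressed complex IV subunits and ATP synthase.

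The 4 genes that are not subunits had differences above 0, with no call, and with median centring Cox7a2l (-0.11) and Cox4nb (-0.09) lay below 0. Atp5s, a coupling factor homologue, had levels of 0.25 in ilium, 0.16 in femur, 0.76 in maxilla and 0.66 in mandible, a difference of 0.50 ± 0.19 with a limma adjusted p of 0.169. Its second probe gave -0.41, the largest disagreement between probes of one gene. Ndufa12l had 0.32, Cox4nb 0.16 and Cox7a2l 0.14. For the 22 genes with several probes above background, the median range between their probes was 0.12, and 4 genes had probes more than 0.5 apart (Atp5s, Ndufc1, Atp5j2 and Atp5b).

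Fast muscle markers, like the heart and muscle isoforms, were lower in the maxilla than in the mandible. So were 9 of 12 slow and cardiac muscle markers, and the other 3 were higher. All 12 fast muscle markers were at least 2-fold lower in the maxilla than in the mandible, with a median difference of -2.63, and Myh2, a fast oxidative myosin, had 6.95 in ilium, 6.90 in femur, 4.22 in maxilla and 6.86 in mandible. Of 12 slow and cardiac muscle markers, 6 were called lower in the jaw by limma, and their summed level was 150.7 in ilium, 143.7 in femur, 13.43 in maxilla and 56.81 in mandible. The slow myosin Myh7 had 5.84, 5.69, -0.91 and 0.26. In the mandible 4 of the 12 fast markers were above both the ilium and the femur and 6 were below both, 2 of these by at least 2-fold (Actn3 and Myh4). Of the 12 slow and cardiac markers 10 were below both, 8 of them by at least 2-fold, Actn2 was above both and Csrp3 lay between. The part of muscle content in the isoform values was not tested.

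Other genes of energy metabolism were set beside the respiratory chain. The 4 genes of complex II (Sdha, Sdhb, Sdhc and Sdhd), the succinate dehydrogenase, had a median jaw minus trunk and limb difference of -0.35, with none called, and all 4 were lowest in the maxilla under each scaling. The largest were Sdhc at -0.40 and Sdhb at -0.37. Cyc1, the cytochrome c1 subunit of complex III, had -0.57, and Cycs, cytochrome c itself, 0.12. Also outside the name pattern, Uqcr10 of complex III had -0.04 and Ndufv3 of complex I 0.30, neither called. Atpif1, an inhibitor of ATP synthase, had -0.88 ± 0.22 (SE, 2 bones a class; limma adjusted p = 0.0814), Atp5md 0.30 and Ndufab1, the acyl carrier protein of complex I, -0.38, none of them called.

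Of 38 tested assembly factors none was called in either direction, and their median difference was 0.08, which turned to -0.17 with median centring. Sco1, a copper chaperone for complex IV, had 0.75 and Coa5 -0.72. Of 17 genes of the citric acid cycle and pyruvate dehydrogenase none was called, the median was -0.34 (-0.10 with quantile normalisation), and 15 were lowest in the maxilla. Ogdh, of the oxoglutarate dehydrogenase, had -0.83 and Suclg2, of the succinyl-CoA ligase, 0.67. Of 16 fatty acid oxidation genes none was called and the median was -0.37. Acads had -0.70, and Cpt1b, the muscle form of carnitine palmitoyltransferase, had -0.67 with a maxilla minus mandible difference of -2.59.

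Of 19 genes of glycolysis 2 were lower and 1 higher by limma, shares near those of all genes tested, and with quantile normalisation 1 was lower. Hk3, a hexokinase of blood cells, had 3.16 in ilium, 3.18 in femur, -0.35 in maxilla and 0.47 in mandible, a difference of -3.11 with an adjusted p of 0.0325. Hk1 fell by 1.38 with 0.0402, and Ldhb, the lactate dehydrogenase B chain, rose by 2.05 with 0.0325. Aldoc had 2.19, with an adjusted p of 0.256.

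Of the 20 regulators of mitochondrial biogenesis, 1 was called higher and 0 lower, where 4.51% of all genes tested were called higher and 7.25% lower. Their median difference was -0.26, with 16 below 0 and 4 above. Ppargc1a, a coactivator of respiratory chain genes, had levels of -0.56 in ilium, -0.65 in femur, 1.00 in maxilla and 0.65 in mandible. Both jaw bones were above both other bones, and the difference was 1.43 ± 0.23 (SE, 2 bones a class; limma adjusted p = 0.0439). That call was lost under quantile normalisation, median centring and the deposited series table. Esrrg had 1.94 and Esrrb -1.95, neither called. Of 8 mitochondrial carriers and creatine kinases, Ckmt1, the widely expressed mitochondrial creatine kinase, rose by 8.93 with a limma adjusted p of 0.0325, from -4.62 in the ilium and -5.18 in the femur to 4.31 in the maxilla and 3.74 in the mandible. Ckmt2, the muscle form, had 5.42, 5.46, 3.48 and 5.98, an order like that of the heart and muscle isoforms of complex IV.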

How the data were processed

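Total RNA of 4 bones was measured on 1-colour Agilent arrays. Per the file headers, the authors' scanner software, Agilent Feature Extraction (version 9.5.3.1 per the submitters' processing notes), gave a background-subtracted intensity for each spot. The deposited series table holds log2 values that, tested against the scanner values, were log2 ratios to the ilium plus a constant per array (99.9% of values within 0.01), and where those constants come from is not given in the sources used here. Its column medians were 0, 0.02, -0.22 and -0.13 from ilium to mandible.

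From the scanner intensity, log2 values minus the array's 75th percentile were computed, outlier spots left out, spots of a probe averaged, and the brightest probe of a gene used. Genes that the scanner software marked above background on 2 or more of 4 arrays entered limma 3.58.1 (R 4.3.3), jaw (maxilla, mandible) against trunk and limb (ilium, femur), with Benjamini-Hochberg adjustment over all 20616 genes and a threshold of 0.05. The fit had 2 residual degrees of freedom and 1.76 prior ones, and was tested on simulated data. Of the 106 probes of these genes, 102 to 103 were above background in each bone and none was flagged as an outlier or saturated. All arrays shared 1 scan time. Differences between 2 bones carry no test.

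The members and lists were chosen with earlier results of these data known. Genes named were the isoforms and their partners, the genes that encode no subunit, per complex the extreme differences and the smallest ones, and the 2 largest of each other list. Ndufs1, Ndufs8, Ndufv1, Cox5a, Cox5b, Hk1, Myh2, Myh7, Actn2, Actn3, Csrp3, Myh4, Ndufc1, Sdha, Sdhd and the globins were added after their values were seen. So were Ndufc2, Ndufv3 and Uqcr10. Mitochondrially encoded subunits were not analysed here, and the values of 1 gene are not reported here. Alternatives were other background corrections, scalings, filters, probe rules, fold limits and leaving out each array.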

Additional observations from a re-analysis of the deposited data

How the results depend on the processing

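These counts and medians over the respiratory chain genes changed with the processing. The count called lower in the jaw, 0, became 1 with normexp background correction and 1 with the filter of all 4 arrays (Cox6b2 each time). Leaving out 1 array gave 0 to 7 called lower and 0 to 1 called higher. Without a jaw array the other is assumed to vary like the ilium and femur, and 20.2% of all genes were called lower and 19.6% higher without the mandible, and 15.5% and 14.4% without the maxilla. The members called were 7 lower without the mandible (Cox6a2, Cox7a1, Ndufa10, Cox8b, Cox6b2, Cox5b and Cox5a), and 1 lower (Cox6b2) and 1 higher (Uqcrb) without the maxilla. Without the ilium or the femur 0 of all genes tested were called. The median jaw difference of the heart and muscle isoforms ran from -1.58 to 0.71 over these, and that of the widely expressed subunits (-0.02) became 0.22 with quantile normalisation, -0.27 with median centring and -0.27 in the series table, where the median of all genes moved to -0.09, -0.28 and -0.28. The maxilla minus mandible median of the widely expressed subunits became -0.62 with median centring and -0.64 in the series table, against -0.33 and -0.35 for all genes, and the count at least 2-fold lower in the maxilla, 7, became 12 and 13. A 1.5-fold limit gave 22, and 1 gene between ilium and femur. With every probe by itself, 1 probe was at least 2-fold higher in the maxilla, an Atp5f1 probe whose brighter partner differed by -0.19. The 724 values of named genes under these alternatives were each held against the standard error of the gene's jaw minus trunk and limb difference. By that measure 581 moved by less, with no change of call, and 134 moved further. The rest passed the threshold, mostly in fits without a jaw array. The maxilla minus mandible differences among them have no error or call of their own. The error used for them grows with the gap between the jaw bones, so it is a lenient measure for genes with a large gap. No paired analysis was possible because each bone has 1 array. Values near background, such as those of Cox4i2, are limited by signal.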

Other observations

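In the mandible, the 3 heart and muscle isoforms stood above the ilium and the femur, as did 4 of 12 fast muscle markers and 1 of 12 slow and cardiac ones. Relative to the ilium, the mandible was higher by 0.73 for Cox6a2, 1.04 for Cox7a1 and 0.57 for Cox8b, and relative to the femur by 0.69, 0.80 and 0.75, all on the log2 scale. The median over 12 fast muscle markers was -0.16 against the ilium and -0.01 against the femur. Over 12 slow and cardiac markers it was -2.59 and -2.58. Under quantile normalisation, median centring and the series table, the isoforms' median excess over the ilium was 1.02, 0.60 and 0.61, and the fast markers' median was 0.05, -0.30 and -0.28. The fast markers above both bones were Myh1, Tnnt3, Tnni2 and Tnnc2. Myh1, a fast myosin, had the highest excess of the fast markers in the mandible, at 7.13 against 6.20 in the ilium and 6.26 in the femur. These were named after their values were seen. The part of muscle content in the isoform values was not tested. Each value rests on 1 array a bone and carries no test.

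Brown adipocyte markers varied between the bones. Ucp1, the uncoupling protein of brown fat, had levels of 1.21 in ilium, -6.62 in femur, -4.96 in maxilla and -0.45 in mandible. Cpt1b, a marker of this list that muscle also expresses, had 1.49, 1.32, -0.56 and 2.03, the order of the heart and muscle isoforms. Cidea had 3.63, -1.29, 3.30 and 1.41, and Dio2 had 0.19, -0.24, 1.49 and 0.29. Elovl3, above background on 1 array, had -6.86, -8.77, -2.32 and -8.62. Ucp1 and Cpt1b were thus lower in the maxilla than in the mandible, while Cidea, Dio2 and Elovl3 were higher. The summed linear level of the 5 markers was 18.69, 3.764, 13.55 and 8.71 in the same order.

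Other marker lists were as follows for the jaw against the ilium and femur by limma. Of 5 tested white adipocyte markers 2 were called lower. Of 5 tooth markers 4 were called higher, as were all 4 tested markers of stratified epithelium. None of the 7 osteoblast and 5 nasal and salivary markers was called in either direction. Of all genes tested 7.25% were called lower and 4.51% higher.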
